A study of Mus musculus with 24 samples.

Results

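Annexins are proteins that attach to negatively charged phospholipids when calcium rises. They share a conserved core of repeats that holds the calcium sites, and a variable N-terminal tail through which several of them bind small EF-hand proteins of the S100 family. In liver they take part in vesicle traffic, membrane repair, and the handling of membrane lipids. The genes described here are the 8 annexins *Anxa1*, *Anxa2*, *Anxa3*, *Anxa4*, *Anxa5*, *Anxa6*, *Anxa7*, and *Anxa11*, which were chosen by name, with earlier results of these data known. All 8 were found among the 23972 genes of the count table. 

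Liver RNA was sequenced from 24 female mice that carried floxed alleles of *Lmna*, the gene of lamin A/C. Control mice (labelled Lmna.WT) lacked Cre. Adipocyte-specific knockouts (labelled Lmna.KO, here *Lmna* ADKO) carried Cre under the *Adipoq* promoter, so *Lmna* was deleted in adipocytes and not by design in the liver sampled. By the study's methods, the mice were adults at the start, were kept on a high-fat diet at room temperature before and during treatment, and received vehicle or an adeno-associated virus that expresses FGF21, which the labels call a rescue. There were 7 vehicle-treated controls, 3 FGF21-treated controls, 6 vehicle-treated *Lmna* ADKO mice, and 8 FGF21-treated *Lmna* ADKO mice, with 1 library per animal. Libraries are numbered within each group in the order in which they were deposited.

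Libraries held 19863304 to 21510054 counts. Levels are given as CPM, the counts scaled to a common library size, and the 3 counts used as the limit of detection equal 0.124 to 0.176 CPM. The liver label held, since the 10 hepatocyte markers summed to between 75052 and 154446 CPM in every library, and the adipocyte genes *Adipoq* and *Plin1* had at most 13 and 6 counts. Counts on *Fgf21* did not set the treated libraries apart, with a log2 fold change of -0.58 ± 0.37 (SE; edgeR adjusted p = 0.730) in *Lmna* ADKO mice and 0.24 ± 0.48 (edgeR adjusted p = 0.925) in controls. In 3 libraries (vehicle-treated control 3, FGF21-treated control 3, and FGF21-treated *Lmna* ADKO 7), counts fell with gene length more steeply than in the other 21, with slopes of -0.331 to -0.154 log2 CPM per doubling of exonic length against -0.109 to 0.128. Of the animal numbers in the labels, those of 6 of 7 vehicle-treated controls have 3 digits, as does 1 of 6 for vehicle-treated *Lmna* ADKO mice. What this numbering stands for is not given in the sources used here.

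The stretches in front of the start sites of *Anxa2*, *Anxa7*, and *Anxa11* are shown because the first gene had the largest genotype difference of the 8, the next the smallest one that was called, and the last none. They come from RefSeq promoter windows on GRCm38.p6, which start 250 bases before the annotated transcription start and were matched for 6 of the 8 genes. Only bases outside every exon of GENCODE M21 are printed, and capitals mark the letters of 4 motifs searched on both strands. These were TATAAA, a core promoter element, TGANTCA, which AP-1 factors bind, GGGCGG, which SP factors bind, and GGAATG, which TEAD factors bind. The *Anxa2* stretch is chr9:69453433-69453619 on the plus strand, the *Anxa7* stretch is chr14:20480134-20480383 on the minus strand, and the *Anxa11* stretch is chr14:25841905-25842154 on the plus strand.
Anxa2: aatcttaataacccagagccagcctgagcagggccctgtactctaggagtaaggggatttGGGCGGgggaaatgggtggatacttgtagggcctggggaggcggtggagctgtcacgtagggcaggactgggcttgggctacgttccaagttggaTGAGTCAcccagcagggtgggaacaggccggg
Anxa7: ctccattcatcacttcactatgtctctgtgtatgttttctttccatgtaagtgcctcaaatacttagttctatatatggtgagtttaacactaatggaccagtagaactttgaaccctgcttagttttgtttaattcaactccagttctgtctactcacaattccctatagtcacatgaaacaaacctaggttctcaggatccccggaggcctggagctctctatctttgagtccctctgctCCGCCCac
Anxa11: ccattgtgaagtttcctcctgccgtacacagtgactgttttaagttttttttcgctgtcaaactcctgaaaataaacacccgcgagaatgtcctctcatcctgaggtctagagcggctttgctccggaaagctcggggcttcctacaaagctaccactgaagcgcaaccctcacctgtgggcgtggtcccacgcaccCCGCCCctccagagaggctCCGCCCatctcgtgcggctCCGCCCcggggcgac

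The AP-1 letters occurred in front of *Anxa2*, as TGAGTCA from base -95 to base -89 before the RefSeq start, and in no other window of the annexins matched. They were present in 6.73% of all 32536 windows of 250 bases before a start. TATAAA stood at bases -17 to -12 of *Anxa2*, where GENCODE already places its first exon, and at bases -32 to -27 of *Anxa1*, against 12.3% of all windows. All 250 bases of the *Anxa1* window lie within the gene as GENCODE places it. GGGCGG was found 3 times in front of the RefSeq start of *Anxa2*, at both RefSeq starts of *Anxa7*, and 3 times in front of *Anxa11*, against 33.0% of all windows. In *Anxa2* the matches at bases -48 to -43 and -24 to -19 also lay in the first exon of GENCODE. GGAATG was found in front of the RefSeq start of *Anxa1* alone, against 12.6%. The windows of *Anxa4* and *Anxa5* held none of these letters. These matches describe letters in the sequence, and binding was not measured.

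In vehicle-treated mice, 4 of the 8 annexins were higher in *Lmna* ADKO liver than in control liver, and none was called lower. *Anxa2* rose 5.59-fold, *Anxa5* 3.29-fold, *Anxa1* 2.07-fold, and *Anxa7* 1.58-fold. *Anxa4* was 1.20-fold higher, under the 1.5-fold limit used here, and *Anxa3*, *Anxa6*, and *Anxa11* did not pass the test. A gene is called when edgeR's quasi-likelihood test gives a Benjamini-Hochberg adjusted p under 0.05 over all genes and the fold change is above 1.5. By that rule 5.12% of all genes tested were called higher in this comparison, and 6.68% of the 12492 expressed genes, which average 0 or more in log2 CPM and include all 8 annexins. The median log2 fold change was 0.52 over the 8 annexins and 0.00 over all genes.

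**Figure D1:**
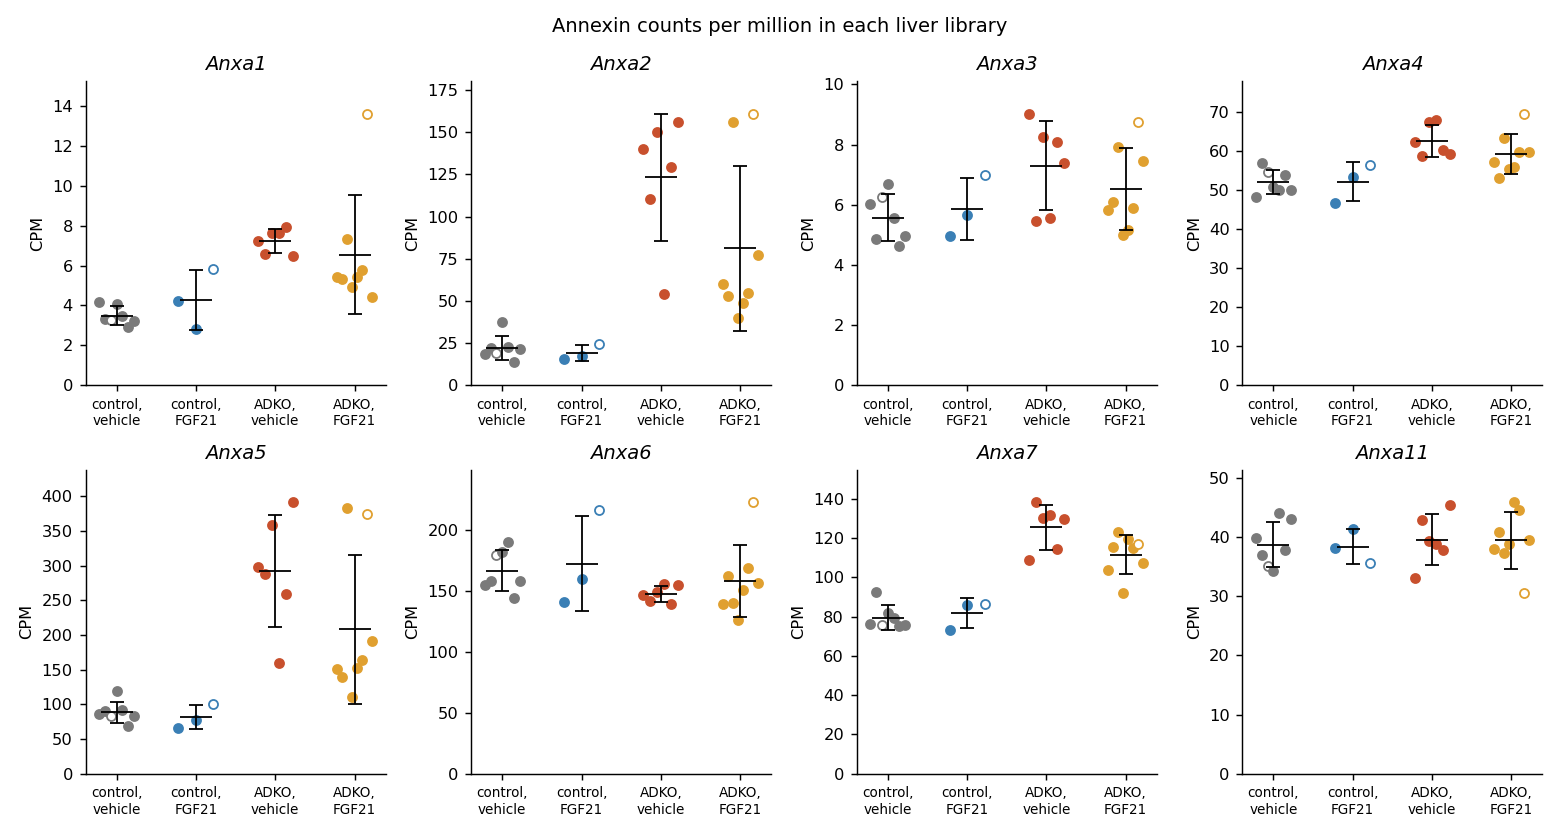
CPM of each annexin (vertical axes, from 0) in each of the 24 liver libraries, by group (horizontal axes; ADKO, *Lmna* ADKO). Points are libraries, open points are the 3 libraries with the steepest slopes on gene length, and black bars give the group mean and SD. *Anxa2* and *Anxa5* of all vehicle-treated *Lmna* ADKO libraries lie above those of all vehicle-treated controls, and 2 of the 8 FGF21-treated *Lmna* ADKO libraries stand far above the other 6.

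*Anxa2* (ENSMUSG00000032231, chr9:69453620-69491795, plus strand) encodes the annexin that pairs with S100A10 at the plasma membrane and serves as an anchor for plasminogen and its activator. Its CPM in vehicle-treated controls ran from 13.6 through a median of 21.7 to 37.2. In vehicle-treated *Lmna* ADKO mice it ran from 53.8 through 135 to 156. The groups did not overlap, and their nearest libraries were the highest control (library 4) and the lowest knockout (also library 4 of its group). The log2 fold change was 2.48 ± 0.34 (SE, n = 6 and 7), with an edgeR adjusted p of 3.19e-05.

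*Anxa5* (ENSMUSG00000027712, chr3:36448923-36475894, minus strand) encodes the annexin known for binding phosphatidylserine exposed on dying cells. Its CPM in vehicle-treated controls ran from 68.2 through 86.1 to 119, and in vehicle-treated *Lmna* ADKO mice from 159 through 293 to 391. Every knockout library was above every control. The lowest knockout and the highest control were again library 4 of each group. The log2 fold change was 1.72 ± 0.26 (SE, n = 6 and 7), with an edgeR adjusted p of 6.95e-05.

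*Anxa1* (ENSMUSG00000024659, chr19:20373428-20390944, minus strand) encodes a glucocorticoid-regulated, pro-resolving protein that signals through formyl peptide receptors and binds S100A11. It was among the least abundant of the 8, with 2.92 to 4.17 CPM (median 3.33) in vehicle-treated controls and 6.49 to 7.91 CPM (median 7.43) in vehicle-treated *Lmna* ADKO mice. These ranges did not overlap and were narrow in both groups. The log2 fold change was 1.05 ± 0.20 (SE, n = 6 and 7; edgeR adjusted p = 0.000463).

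*Anxa7* (ENSMUSG00000021814, chr14:20455260-20480133, minus strand) encodes synexin, a calcium-dependent membrane fusion protein that binds sorcin. It had 75.0 to 92.6 CPM (median 76.4) in vehicle-treated controls and 109 to 138 CPM (median 130) in vehicle-treated *Lmna* ADKO mice, again without overlap. Its log2 fold change was the smallest of those called and, with the smallest SE of them, had the lowest adjusted p (0.66 ± 0.09, SE, n = 6 and 7; edgeR adjusted p = 7.48e-06). When 3-digit and 4-digit animal numbers entered the fit as a covariate it was 0.60, and the gene was still called. Since the number series largely coincides with genotype in vehicle-treated mice, this fit separates them only in part.

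*Anxa4* (ENSMUSG00000029994, chr6:86736840-86793584, minus strand), an annexin of polarized epithelia such as bile ducts, had 48.1 to 56.8 CPM in vehicle-treated controls and 58.8 to 67.8 CPM in vehicle-treated *Lmna* ADKO mice. The groups did not overlap, and the log2 fold change of 0.27 ± 0.08 (SE, n = 6 and 7) had an edgeR adjusted p of 0.0228, but it was below the limit of a 1.5-fold difference. Thus 5 of the 8 annexins had every knockout library above every control in the vehicle-treated groups, against 7.24% of the expressed genes.

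*Anxa3* (ENSMUSG00000029484, chr5:96793339-96845966, plus strand), known from neutrophils and from new vessels, had 4.62 to 6.68 CPM in vehicle-treated controls and 5.45 to 9.03 CPM in vehicle-treated *Lmna* ADKO mice. The ranges overlapped in the knockout libraries 2 and 4, and the log2 fold change of 0.39 ± 0.15 (SE, n = 6 and 7) did not pass (edgeR adjusted p = 0.0741). *Anxa6* (ENSMUSG00000018340, chr11:54979108-55033445, minus strand), the annexin with a duplicated core that acts in cholesterol traffic through late endosomes, had 144 to 190 CPM in controls and 139 to 156 CPM in knockouts. Its log2 fold change was -0.17 ± 0.12 (SE, n = 6 and 7; edgeR adjusted p = 0.355). *Anxa11* (ENSMUSG00000021866, chr14:25842156-25886804, plus strand), which tethers RNA granules to lysosomes, had 34.3 to 44.1 CPM in controls and 33.2 to 45.5 CPM in knockouts, ranges that lay almost on top of each other. Its log2 fold change was 0.03 ± 0.09 (SE, n = 6 and 7; edgeR adjusted p = 0.893).

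**Figure D2:**
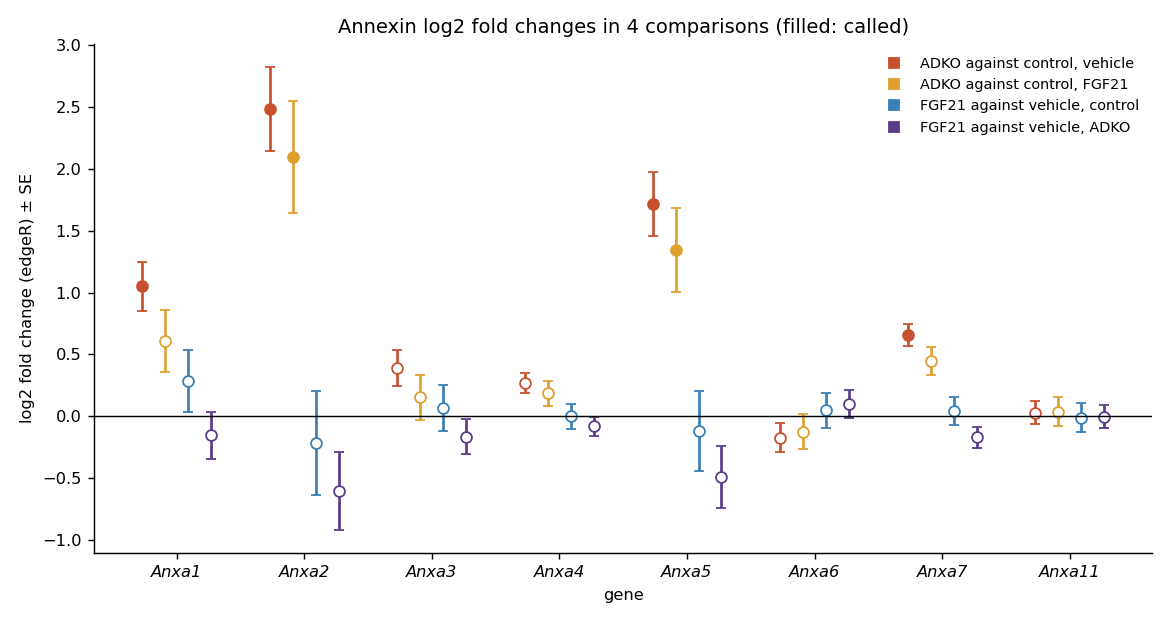
Log2 fold changes of the 8 annexins (vertical axis, edgeR estimate with its SE as error bar) in 4 comparisons (colors) by gene (horizontal axis). Filled points were called at an adjusted p under 0.05 and a fold change above 1.5, which holds for *Anxa1*, *Anxa2*, *Anxa5*, and *Anxa7* in vehicle-treated mice, for *Anxa2* and *Anxa5* in FGF21-treated mice, and for no gene in the comparisons of FGF21 with vehicle.

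Because genes differ in length, their levels were compared as TPM, a share of transcripts, computed here from the counts and the summed length of each gene's exons. In vehicle-treated controls, *Anxa6* led with 125 ± 13.5 TPM (SD, n = 7), followed by *Anxa5* with 111 ± 23.9 TPM. These neighbours were not apart, since *Anxa5* exceeded *Anxa6* in 1 of the 7 libraries. *Anxa7* (29.4 ± 4.25 TPM), *Anxa4* (24.7 ± 2.48 TPM), and *Anxa11* (20.8 ± 3.01 TPM) formed a middle tier that kept this order in each of the 7 libraries. *Anxa2* followed with 13.1 ± 4.84 TPM and stood above *Anxa11* in 1 library. *Anxa3* (3.37 ± 0.54 TPM) and *Anxa1* (2.67 ± 0.53 TPM) were lowest. 

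In vehicle-treated *Lmna* ADKO mice, *Anxa5* was first in all 6 libraries with 400 ± 130 TPM (SD, n = 6), above *Anxa6* with 121 ± 10.1 TPM. *Anxa2* moved up to rank 3 with 80.4 ± 27.6 TPM, and it was above *Anxa7* (50.3 ± 5.78 TPM) in 5 of 6 libraries. *Anxa1* (5.98 ± 0.56 TPM) was above *Anxa3* (4.84 ± 1.15 TPM) in all 6. In FGF21-treated *Lmna* ADKO mice the order of mean levels was the same, but *Anxa2* (47.1 ± 28.7 TPM, n = 8) was above *Anxa7* (41.3 ± 7.93 TPM) in only 3 of 8 libraries.

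**Figure D3:**
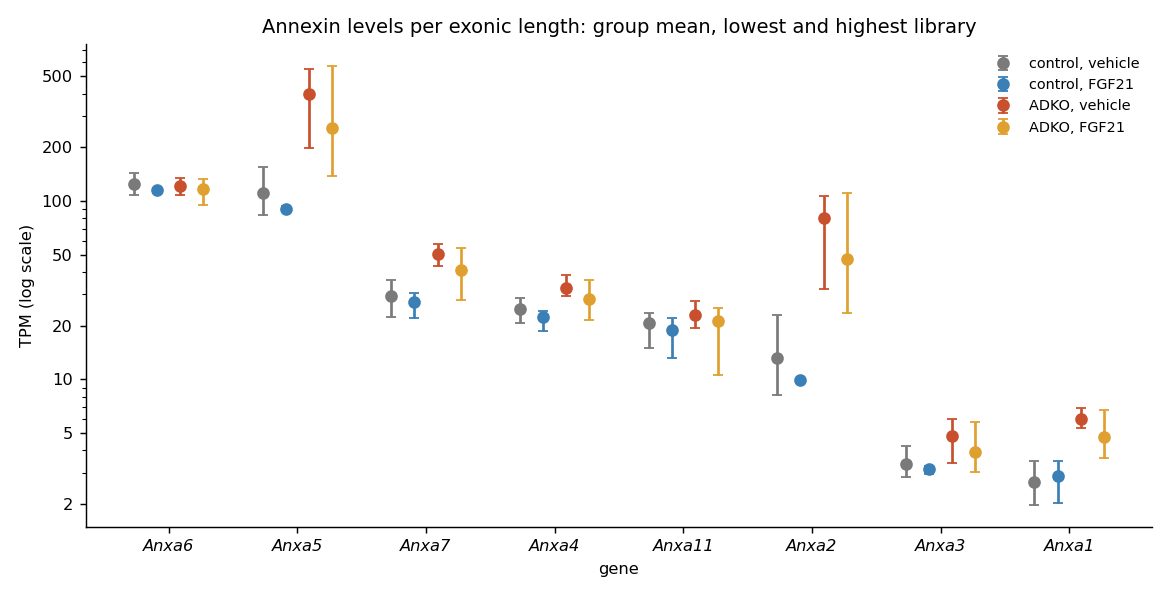
TPM of the 8 annexins (vertical axis, log scale) by gene, ordered by the mean in vehicle-treated controls (horizontal axis), in the 4 groups (colors). Points are group means and bars reach from the lowest to the highest library, and the means of *Anxa5* and *Anxa2* in both *Lmna* ADKO groups stand above those in both control groups, while the means of *Anxa6* run from 115 to 125 TPM and those of *Anxa11* from 18.8 to 23.0 TPM.

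Among FGF21-treated mice, *Anxa2* and *Anxa5* were called higher in *Lmna* ADKO liver than in control liver, 2 of the 8 annexins against 1.61% of all genes. This comparison rests on 3 control libraries, 1 of which is among the 3 with a steep slope on gene length. *Anxa2* had 15.5, 17.3, and 24.2 CPM in FGF21-treated controls, and 39.9 through a median of 57.1 to 161 CPM in FGF21-treated *Lmna* ADKO mice. All 8 knockout libraries were above the 3 controls, and libraries 3 and 7 (156 and 161 CPM) stood apart from the other 6, which reached 77.4 CPM. The log2 fold change was 2.10 ± 0.46 (SE, n = 8 and 3; edgeR adjusted p = 0.0108).

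*Anxa5* had 66.5, 78.1, and 101 CPM in FGF21-treated controls, and 111 through 158 to 384 CPM in FGF21-treated *Lmna* ADKO mice. Libraries 3 and 7 were again highest, at 384 and 375 CPM, and the other 6 ran up to 191 CPM. The log2 fold change was 1.35 ± 0.34 (SE, n = 8 and 3; edgeR adjusted p = 0.0239). Without the 3 libraries with a steep slope, *Anxa2* was still called (log2 fold change 2.10, edgeR adjusted p = 0.0450), and *Anxa5* was not (1.36, edgeR adjusted p = 0.0866). Fitting only the groups compared gave an adjusted p of 0.0705 for *Anxa2* and 0.131 for *Anxa5*, and neither was then called.

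*Anxa7* was above all 3 FGF21-treated controls in all 8 *Lmna* ADKO libraries, with 73.3, 85.8, and 86.5 CPM in controls and 92.0 to 123 CPM (median 115) in knockouts. The log2 fold change of 0.45 ± 0.11 (SE, n = 8 and 3) had an edgeR adjusted p of 0.0184 and was below the 1.5-fold limit. *Anxa2*, *Anxa5*, and *Anxa7* were thus the 3 annexins with no overlap in this comparison, against 5.03% of the expressed genes. *Anxa1* had 2.80, 4.23, and 5.82 CPM in FGF21-treated controls and 4.40 to 13.6 CPM (median 5.43) in FGF21-treated *Lmna* ADKO mice. These overlapped, and the log2 fold change of 0.61 ± 0.25 (SE, n = 8 and 3) did not pass (edgeR adjusted p = 0.194). The log2 fold changes of *Anxa3*, *Anxa4*, *Anxa6*, and *Anxa11* lay between -0.12 and 0.19, and none passed.

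No annexin was called between FGF21 and vehicle. In *Lmna* ADKO mice, 0 of the 8 were called by edgeR's quasi-likelihood test or by DESeq2, and 0 had an unadjusted edgeR p under 0.05, where 0.0% of all genes were called by edgeR (DESeq2 called 7 higher and 8 lower). Without FGF21-treated *Lmna* ADKO library 3, edgeR called 21 genes higher and 40 lower, none of them among the 8. Mean CPM (± SD) of *Anxa2* was 123 ± 37.7 with vehicle (n = 6) and 81.3 ± 49.0 with FGF21 (n = 8), with a log2 fold change of -0.60 ± 0.31 (SE; edgeR adjusted p = 0.704). Those of *Anxa5* were 292 ± 81.3 and 208 ± 108 CPM, a log2 fold change of -0.49 ± 0.25 (SE; edgeR adjusted p = 0.704). Without library 3 the log2 fold changes were -0.81 for *Anxa2* (edgeR adjusted p = 0.304) and -0.68 for *Anxa5* (edgeR adjusted p = 0.236). In both genes 6 of the 8 treated libraries were below the median of the vehicle-treated group and 2 were above it. *Anxa7*, with a narrower spread, was below that median in all 8, with a log2 fold change of -0.17 ± 0.09 (SE; edgeR adjusted p = 0.704). The vehicle-treated *Lmna* ADKO libraries of this comparison are also those of the genotype comparison above.

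In control mice, 0 of 8 annexins were called by either tool and 0 had an unadjusted edgeR p under 0.05, against 0.0542% of all genes called by edgeR. Their log2 fold changes ran from -0.22 (*Anxa2*) to 0.29 (*Anxa1*). The interaction of genotype and treatment, which asks whether the genotype difference itself differed between FGF21 and vehicle, was not called for any of the 8 by either tool, with 0 of 8 at an unadjusted edgeR p under 0.05 and 0.00417% of all genes called. It was -0.39 ± 0.52 (log2, SE) for *Anxa2* and -0.37 ± 0.40 for *Anxa5*, so that at these group sizes the difference between the genotype effects was not detectable.

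Levels of *Anxa2* and *Anxa5* went together from library to library. Pearson's r of their log2 CPM was 0.99 over the 24 libraries, and 0.97 for deviations from the group means. Without FGF21-treated *Lmna* ADKO libraries 3 and 7, a choice made after seeing the data, it was 0.99 and 0.93 over 22 libraries. No other pair of the 8 annexins came as close, the next being *Anxa2* and *Anxa3* with 0.81 for the deviations. *Anxa2* and *Anxa7*, both higher in knockouts, had an r of 0.87 over all libraries but 0.30 for the deviations. *Anxa1* was at 0.59 with *Anxa2* for the deviations, and at 0.19 without the same 2 libraries. *Anxa11* went the opposite way to *Anxa1*, with -0.60 for the deviations. Of the 3 libraries with steep length slopes, FGF21-treated *Lmna* ADKO 7 (13.6 and 30.5 CPM) and FGF21-treated control 3 (5.82 and 35.6 CPM) were highest for *Anxa1* and lowest for *Anxa11* in their groups. Vehicle-treated control 3 (3.26 and 35.0 CPM) was neither, and r without these libraries was not computed. These correlations are descriptions, and the libraries share the genotype groups, the diet, and any difference in RNA or depth between livers.

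**Figure D4:**
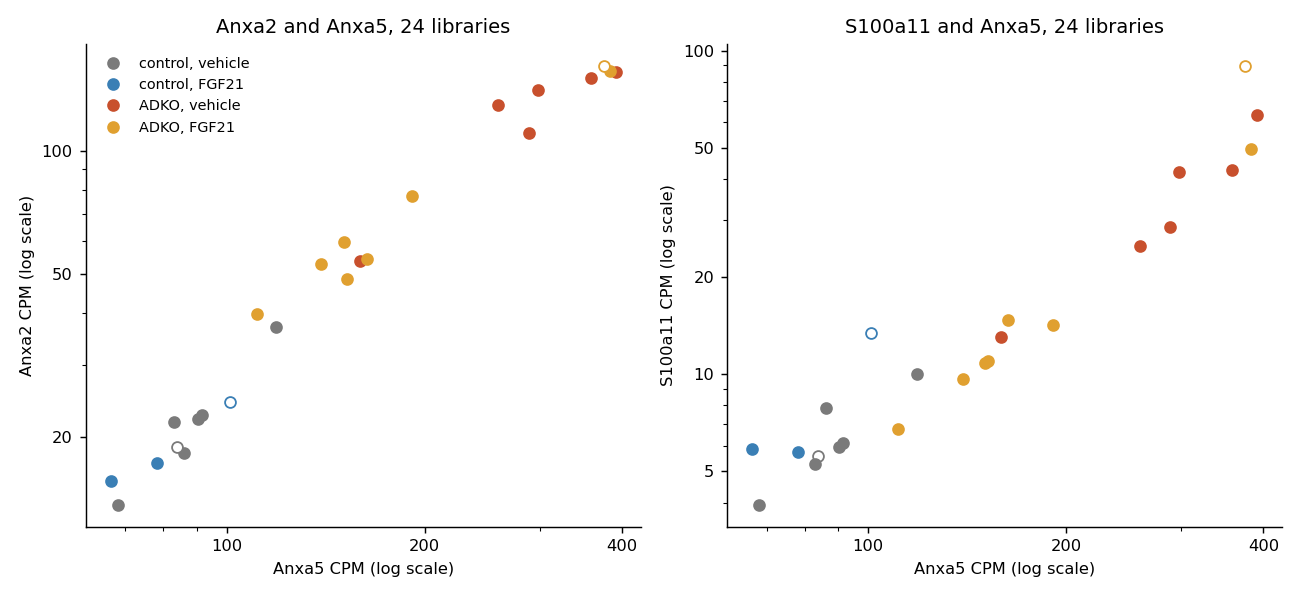
CPM of *Anxa2* (left) and of *S100a11* (right) against CPM of *Anxa5* (both axes on log scales) in the 24 libraries, colored by group, with open points for the 3 libraries with the steepest slopes on gene length. The libraries lie along a line in both plots, with control libraries at the lower left and *Lmna* ADKO libraries from the middle to the upper right.

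Of 12477 other expressed genes, those whose log2 CPM correlated best with *Anxa2* over the 24 libraries were *Sprr1a*, a small proline-rich protein of stressed epithelia and neurons (r = 0.97), *Cidea*, a lipid droplet fusion protein (r = 0.96), and *Apoa4*, an apolipoprotein of lipid-loaded liver (r = 0.96). For deviations from the group means these were 0.87, 0.82, and 0.83. For *Anxa5* they were *Sprr1a* (r = 0.98), *Cd63*, a tetraspanin of late endosomes and exosomes (r = 0.96), and *S100a11* (r = 0.96), with 0.92, 0.93, and 0.96 for the deviations. *Sprr1a*, at a mean of 0.148 CPM in vehicle-treated controls, and *Cidea* lay near or under the limit of detection there and reached the expressed genes only through the other groups, so that their r over all libraries includes the genotype difference. *Cidea* also had 0 counts in every FGF21-treated control, so that its r for the deviations rests almost only on *Lmna* ADKO libraries. *Apoa4* rose from a mean of 387 to 5482 CPM between vehicle-treated controls and *Lmna* ADKO mice.

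A list of 12 S100 and EF-hand genes was taken, since several proteins of these families bind annexin tails, though not every listed one is an established partner. In vehicle-treated mice 3 of them were called higher in *Lmna* ADKO liver, 0 lower, and 9 did not pass, against 8.48% of all genes called either way. *S100a11*, the partner of annexin A1, had 3.94 to 9.99 CPM (median 5.95) in controls and 13.05 to 63.3 CPM (median 35.3) in knockouts, with no overlap and a log2 fold change of 2.48 ± 0.56 (SE, n = 6 and 7; edgeR adjusted p = 0.00410). *S100a6*, which encodes calcyclin, rose by 1.01 ± 0.21 on the log2 scale (edgeR adjusted p = 0.00142), and *Gca*, which encodes grancalcin, by 0.65 ± 0.19 (edgeR adjusted p = 0.0177). *S100a10*, the obligate partner of annexin A2 and named here after its values were seen, had 44.9 to 106 CPM in controls and 97.0 to 160 CPM in knockouts. These overlapped in 1 knockout library, and the log2 fold change of 0.72 ± 0.26 (SE) did not pass (edgeR adjusted p = 0.0633). DESeq2 called 5 of the 12 higher, *S100a10* among them. In FGF21-treated mice 0 of the 12 were called by edgeR or DESeq2 and 4 had an unadjusted p under 0.05, against 2.88% of all genes called. The medians over the list were 0.40 with vehicle and 0.04 with FGF21 (log2).

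Of 14 genes listed as receptors and complex partners of annexins, 13 were in the table, and 3 were called higher and 2 lower in vehicle-treated *Lmna* ADKO liver, while 8 did not pass, against 8.48% of all genes called either way. *Plat*, the tissue plasminogen activator that annexin A2 binds, had 0.19 to 1.10 CPM in controls and 1.41 to 3.89 CPM in knockouts, without overlap, and rose by 2.12 ± 0.46 on the log2 scale (SE; edgeR adjusted p = 0.00220). With 4 to 24 counts in vehicle-treated controls, *Plat* was near the limit of detection in the lowest and reached the expressed genes only through the *Lmna* ADKO groups. *Plg*, the plasminogen that it activates, fell by 0.89 on the log2 scale (SE 0.14; edgeR adjusted p = 3.36e-05). In FGF21-treated mice 2 of the 13 were called higher and 0 lower by edgeR, against 2.88% of all genes.

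Of 19 membrane repair genes, 5 were called higher, 0 lower, and 14 did not pass in vehicle-treated mice, with a median log2 fold change of 0.29, against 8.48% of all genes called. In FGF21-treated mice 2 of the 19 were called higher, against 2.88% of all genes. *Sytl4*, a Rab27 effector of granule release, rose by 0.80 ± 0.13 (log2, SE; edgeR adjusted p = 0.000108), *Ehd2*, an ATPase of caveolar necks, by 0.73 ± 0.17 (edgeR adjusted p = 0.00432), and *Syt7*, a calcium sensor of lysosome exocytosis, by 0.72 ± 0.25 (edgeR adjusted p = 0.0498). Of 13 lipid droplet genes, 6 were called higher, 0 lower, and 7 did not pass in vehicle-treated mice, and 5 were called higher and 1 lower in FGF21-treated mice, against the same shares of all genes. *Cidec*, which fuses lipid droplets, ran from 1.22 to 6.72 CPM in controls and from 67.4 to 160 CPM in knockouts. *Mogat1*, which makes diacylglycerol, had 0.74 to 3.28 CPM and 12.8 to 31.9 CPM. *Cidea* was at 0 counts in 6 of 7 vehicle-treated controls and at 3 in the other, and had 115 to 1179 counts in knockouts. In FGF21-treated *Lmna* ADKO mice, *Cidec* was highest in libraries 3 and 7 (162 and 114 CPM, with 12.8 to 50.7 CPM in the other 6), the same libraries that were highest for *Anxa2* and *Anxa5*.

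Other cell types of liver also express annexins, and in bulk RNA a change in the number of such cells and a change in RNA per cell cannot be told apart. Of the 10 stellate cell or fibroblast markers, 5 were called higher in vehicle-treated *Lmna* ADKO liver, among them *Col1a2* (1.10 ± 0.32, log2, SE), *Col3a1* (1.08 ± 0.36), and *Lum* (1.04 ± 0.21). The counts of this and the following marker lists stand against 8.48% of all genes called either way. The stellate cell or fibroblast markers summed to 244 to 367 CPM in vehicle-treated controls and 333 to 517 CPM in knockouts. Of 10 cholangiocyte markers, 2 were called higher. *Spp1*, which macrophages and stressed hepatocytes also make, rose by 1.83 ± 0.31 (log2, SE; edgeR adjusted p = 0.000302), and the other 9 summed to 16.2 to 22.8 CPM in controls and 17.0 to 24.9 CPM in knockouts. Of 10 macrophage markers, 1 (*Gpnmb*) was called higher by edgeR, a share near that of all genes. DESeq2 called *Gpnmb* and *Trem2* higher, and 5 of the 10 had an unadjusted edgeR p under 0.05. Log2 fold changes of the 10 ran from -1.24 to 2.19, and their sum was 638 to 899 CPM in controls and 457 to 774 CPM in knockouts. Of 10 endothelial markers, 2 (*Lyve1* and *Vwf*) were called higher, with sums of 325 to 424 and 315 to 389 CPM.

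Neutrophil (sums of 6.54 to 27.9 CPM in vehicle-treated controls and 10.5 to 17.3 CPM in knockouts) and lymphocyte markers (8.51 to 19.2 and 7.22 to 16.2 CPM) had 0 of 10 called in each list by edgeR, with 2 and 3 at an unadjusted p under 0.05, and DESeq2 called 0 neutrophil markers and 2 lymphocyte markers (lower). Of 8 mesothelial markers 1 (*Gpm6a*) was called higher, with sums of 1.13 to 5.25 and 2.45 to 6.41 CPM. Of 10 hepatocyte markers, 3 were called lower, namely *Cps1*, *Serpina1c*, and *Cyp2e1*, and the sum was 90212 to 150718 CPM in controls and 76613 to 115160 CPM in knockouts. Of 8 adipocyte markers 0 were called by edgeR, 1 had an unadjusted p under 0.05, and DESeq2 called 1 higher. In FGF21-treated mice, 0 of the 10 stellate cell or fibroblast markers were called by edgeR or DESeq2, with 6 at an unadjusted p under 0.05.

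Markers of some cell types also stood apart in single libraries that were highest for *Anxa2* and *Anxa5*, though not alike in each. In FGF21-treated *Lmna* ADKO library 3 the stellate cell or fibroblast markers summed to 587 CPM, in library 7 to 426 CPM, and in the other 6 to 301 to 367 CPM. The cholangiocyte markers summed to 259 CPM in library 3, of which *Spp1* made up 224 CPM, and to 61.2 to 108 CPM in the other 7. Without *Spp1* they came to 35.3 CPM in library 3, against 16.3 to 25.3 CPM. Hepatocyte markers were lowest in library 3, at 75052 CPM, but at rank 2 of the 8 in library 7, at 142008 CPM. The sum of the macrophage markers was likewise lowest in library 3 (502 CPM) and at rank 2 in library 7 (780 CPM), but its members differed. The abundant *Cd5l* and *Clec4f* were lowest in library 3 (191 and 109 CPM). *Gpnmb* was highest in libraries 3 and 7 (14.5 and 10.2 CPM, with 0.77 to 8.76 CPM in the other 6). *Trem2* was also highest in these libraries (5.52 and 11.9 CPM, with 1.61 to 4.86 CPM in the other 6). The cholangiocyte sum of library 7 was 79.3 CPM, at rank 4, and without *Spp1* it was 25.3 CPM, at rank 2 behind library 3. In vehicle-treated control library 4, the highest control for both annexins, the stellate cell or fibroblast markers summed to 367 CPM against 244 to 291 CPM in the other 6. *Gpnmb* (11.8 CPM against 0.63 to 1.02 CPM) and *Trem2* (3.77 CPM against 0.77 to 2.60 CPM) were also highest there. The macrophage markers, which include both, summed to 701 CPM against 638 to 899 CPM. Without that library the log2 fold changes with vehicle were 2.66 for *Anxa2* and 1.80 for *Anxa5*. The part of these cell types in the annexin differences was not tested.

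Of the 4 annexins outside this group of 8, *Anxa8*, *Anxa9*, and *Anxa13* were in the table, at low counts. *Anxa8* had 0 to 4 counts per library in vehicle-treated controls and 4 to 20 counts in vehicle-treated *Lmna* ADKO mice, and it was called higher (edgeR adjusted p = 0.00112), with a fold that such low counts do not fix. *Anxa9* had 17 to 28 and 16 to 37 counts and did not pass. Among FGF21-treated mice *Anxa8* had 0 to 4 counts in controls and 3 to 16 in knockouts and was called higher by DESeq2 but not by edgeR (adjusted p = 0.0847). *Anxa9* was called lower in *Lmna* ADKO liver, with 27 to 40 counts in controls and 5 to 29 in knockouts (edgeR adjusted p = 0.0156). *Anxa13*, an annexin of kidney and gut, had 9 to 18 counts in vehicle-treated controls and 15 to 22 in vehicle-treated *Lmna* ADKO mice and did not pass. Genes annotated on the opposite strand of *Anxa2*, *Anxa4*, and *Anxa11* had at most 1, 1, and 2 counts in any library.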

How the data were processed

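Liver RNA of 24 mice was polyA-selected, fragmented, and made into dUTP-stranded libraries. The authors deposited 1 count per gene and library, taken here as estimated counts rounded to whole numbers, since their processing notes name cutadapt 4.8, FastQC 0.11.8, STAR 2.7.8a, and RSEM 1.3.3. The build was GRCm38. Whether counting used strand is not given in the sources used here. RSEM shares reads between similar transcripts, so levels of near-identical sequences are estimates. All 24 value columns matched a sample, and 0 did not. Genes were placed with GENCODE M21, which held 23926 of 23972.

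The quasi-likelihood test of edgeR 4.0.16 (R 4.3.3; robust estimateDisp, glmQLFit, and glmQLFTest) was applied after TMM scaling, in 1 fit of the 4 groups without covariates over all genes, with Benjamini-Hochberg adjustment over all genes. Calls required an adjusted p under 0.05 and a fold change above 1.5. Log2 CPM used a prior count of 2. The SE of a log2 fold change is its size over the root of the F statistic. The fit was tested on simulated counts. Depth was nearly equal across libraries, and 3 counts were taken as the limit of detection, for counting error only.

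Groups came from the genotype and treatment labels, and the treatment called rescue was read as FGF21 from the study's methods. The 67 pairs of libraries within groups had a chi-square per degree of freedom of 14.1 to 196 over genes with at least 20 counts, so none was a duplicate. The genes and lists were chosen with earlier results of these data known. Genes named are the 8 annexins, the other annexins, up to 3 called genes per list with the largest log2 fold change and an average log2 CPM of 0 or more, the 3 genes most correlated with each of *Anxa2* and *Anxa5* (the annexins with the largest genotype difference), and *Fgf21*. Of the receptors and complex partners, 1 gene that the rule selects is counted but not reported here by name. The alternatives were DESeq2 1.42.0, its size factors in edgeR, filterByExpr, no fold limit, only the groups compared, the number series as covariate, 4-digit animal numbers only, the slope on gene length as covariate, 3 libraries left out together, and each library left out.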

Additional observations from a re-analysis of the deposited data

Results flagged for a closer look

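Of 33 combinations of an annexin and a group of 6 to 8 libraries, 5 had 1 library farther from its nearest neighbour than Dixon's 95% value allows, where chance flags about 1 in 20. *Anxa1* in FGF21-treated *Lmna* ADKO library 7 was at 13.6 CPM, above the other 7, which ran from 4.40 to 7.34 CPM. *Anxa6* in the same library was at 222.8 CPM, and this is the library with the steepest slope on gene length. *Anxa2* in vehicle-treated control library 4 was at 37.2 CPM, with the next at 22.6 CPM. In the same library *Gpnmb*, *Trem2*, *Col1a1*, and *Sox9* were above the other 6 controls. Of the marker lists that hold them, the stellate cell or fibroblast sum was also highest there (367 CPM). The macrophage sum (701 CPM, with 638 to 899 CPM in the others) and the cholangiocyte sum (48.0 CPM, with 40.4 to 66.9 CPM) were not. *Anxa7* in vehicle-treated control library 2 was at 92.6 CPM, with the next at 81.7 CPM. *Anxa9* in vehicle-treated *Lmna* ADKO library 6 was at 1.58 CPM.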

How the results depend on the processing

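In vehicle-treated mice the same 4 annexins were called under each alternative that was run, except that dropping the fold limit added *Anxa4* for 5, and leaving out each library in turn gave 4 throughout. In FGF21-treated mice the 2 calls became 0 with only the groups compared, 0 with 4-digit animal numbers only, and 1 (*Anxa2*) without the 3 libraries with steep slopes, and leaving out single libraries gave 0 to 2. The 3 fits in which they were lost each left out an FGF21-treated control: *Anxa5* had an adjusted p of 0.0959, 0.104, and 0.0742 without library 1, 2, and 3 of that group, and *Anxa2* one of 0.0511 and 0.0634 without library 1 and 2. With 4-digit numbers only, the log2 fold changes were 2.16 (adjusted p = 0.0687) for *Anxa2* and 1.42 (adjusted p = 0.106) for *Anxa5*. With the length slope as covariate *Anxa1* was also called in FGF21-treated mice (log2 fold change 0.65, adjusted p = 0.0326). The cause of these changes was not tested, although fewer libraries enter all but the last of these fits. FGF21 against vehicle and the interaction gave 0 called annexins in every fit.

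Changes of sign occurred in log2 fold changes near 0 that were not called. *Anxa11* in the vehicle-treated genotype comparison became -0.065 with the number series as covariate and ran from -0.018 to 0.077 with libraries left out. In FGF21-treated mice *Anxa6* became 0.012 with 4-digit numbers and ran from -0.25 to 0.068 with libraries left out, and *Anxa11* from -0.016 to 0.095. For FGF21 against vehicle in *Lmna* ADKO mice, *Anxa1* became 0.0034 with 4-digit numbers, and *Anxa11* became 0.044 with the number series, 0.015 with the length slope, and 0.038 without the 3 libraries, and ran from -0.050 to 0.042 with libraries left out. Where a left-out library leaves 2 FGF21-treated controls, the spread comes from all groups.

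No paired analysis was possible because the labels give no replicate numbers shared between groups. The vehicle-treated genotype comparison and FGF21 in controls could not be run within 4-digit numbers, since 1 vehicle-treated control has one. Genotype differences under FGF21 and FGF21 against vehicle in controls rest on 3 FGF21-treated controls. Depth limits *Anxa8*, *Anxa9*, and *Anxa13*.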
